A study of Rattus norvegicus with 23 samples.

Results

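A set of 10 genes typical of the pineal gland and of retinal photoreceptors was followed in CD11b/c-selected microglia of neonatal rats: Tph1, Aanat, Asmt, Crx, Otx2, Gnat2, Gngt1, Pde6b, Sag and Rbp3. They were listed by symbol, and all 10 of 10 were present among the 20301 genes of the deposited table. The genes were chosen by their log2 values in these same samples, after the difference between LPS/HI and Sham had been seen, so that the levels and differences of these genes are given as a description, and nothing rests on a test of them.

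The pinealocyte, the main cell of the mammalian pineal gland, makes melatonin from tryptophan by way of serotonin, and Tph1, Aanat and Asmt encode enzymes of that route. Pinealocytes and retinal photoreceptors both depend on homeobox factors of the Otx family for their identity, and pinealocytes keep the transcripts of many proteins with which photoreceptors capture and transduce light. Microglia, the resident macrophages of the brain, are not known for this programme. Otx2 is shared with the epithelium of the choroid plexus, and Tph1 with mast cells.

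The study asked how a systemic inflammatory stimulus before hypoxia-ischemia (HI) alters the microglial transcriptome. Wistar rats of both sexes at postnatal day 7 formed 4 groups: Sham (n = 6), LPS (n = 5), NaCl/HI (n = 6) and LPS/HI (n = 6). LPS pups received 0.1 mg/kg lipopolysaccharide intraperitoneally 4 h before the sham operation, LPS/HI pups the same dose 4 h before HI, and NaCl/HI pups 0.9% saline in its place, whereas no injection was listed for Sham. For HI the common carotid artery of the left side was ligated, followed by 50 min at 8% oxygen, and cells were collected 24 h later. Each Sham or LPS sample was 1 pup's entire brain, whereas each NaCl/HI or LPS/HI sample pooled 2 ipsilateral hemispheres. HI, the tissue taken and the pooling therefore cannot be told apart. Likewise LPS and the injection itself cannot be told apart in LPS against Sham. In all groups cells were picked with magnetic beads against CD11b/c, so that a sample can hold other cells or free RNA, and fewer cells of a type and less RNA per cell cannot be told apart in these bulk values.

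Values are log2 values after the regularized logarithm (rlog), from which the authors had removed 3 surrogate variables. A difference of 1 is a 2-fold change, and rlog draws differences of weakly counted genes towards 0. Depth per library was unknown. Median values of the 23 libraries lay between 7.75 and 7.82. Of 10 listed microglial markers, all in the table, 9 were above these medians in every library, with a lowest value of 15.38 for Cx3cr1 and 13.44 for P2ry12, while Olfml3 ran from 6.89 to 7.59. Library names were numbered 1 to 23 without a break and passed through the 4 groups 2 times, first with replicates 1 to 3 of each group and then with the later replicates. These passes are called library series here. The split was drawn from the numbering and is not a batch named in the labels, which do not say whether animals, extraction or sequencing differed between them. Differences within each series are given for LPS/HI against Sham. Sham replicate 6 stood apart as the highest of the 23 libraries for 9 of the 10 genes, and LPS/HI replicate 6 as the lowest for 6 of them, and results without both are given as well.

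The 250 bases ahead of the annotated start were read from RefSeq promoters of the GRCr8 build for 8 of the 10 genes. The motifs were chosen for genes of this class, with earlier results known, so that their shares are a description. The letters TAATCC, the core bound by Crx and Otx2 proteins, were searched on both strands, as were the letters TGACGTCA, the cyclic AMP response element. These motifs do not overlap each other. TAATCC was present in 4 of the 8 (50%), in 11 of 52 other pathway genes with a promoter entry (21.2%) and in 1737 of all 27457 promoters (6.33%). TGACGTCA was present in 1 of the 8 (12.5%), in 0 of the 52 and in 1.70% of all promoters. The 5 promoters that held a motif are shown 5′ to 3′ on the strand of the gene, with the motif in capitals; all TAATCC matches lay on the opposite strand and read GGATTA here.

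Crx: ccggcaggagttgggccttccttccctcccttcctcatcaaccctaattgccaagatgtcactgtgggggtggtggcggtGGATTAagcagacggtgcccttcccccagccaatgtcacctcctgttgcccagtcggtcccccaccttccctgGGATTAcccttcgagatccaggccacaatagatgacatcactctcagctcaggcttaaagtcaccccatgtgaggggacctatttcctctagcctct
Rbp3: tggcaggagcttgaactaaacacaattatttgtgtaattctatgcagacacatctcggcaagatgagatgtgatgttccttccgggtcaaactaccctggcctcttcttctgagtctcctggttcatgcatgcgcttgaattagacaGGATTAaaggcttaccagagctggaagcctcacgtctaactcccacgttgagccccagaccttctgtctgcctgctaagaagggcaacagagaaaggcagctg
Gngt1: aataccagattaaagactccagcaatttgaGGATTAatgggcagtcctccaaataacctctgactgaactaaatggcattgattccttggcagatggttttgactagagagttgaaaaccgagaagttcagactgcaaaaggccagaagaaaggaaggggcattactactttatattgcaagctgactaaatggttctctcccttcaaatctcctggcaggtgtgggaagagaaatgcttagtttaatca
Aanat: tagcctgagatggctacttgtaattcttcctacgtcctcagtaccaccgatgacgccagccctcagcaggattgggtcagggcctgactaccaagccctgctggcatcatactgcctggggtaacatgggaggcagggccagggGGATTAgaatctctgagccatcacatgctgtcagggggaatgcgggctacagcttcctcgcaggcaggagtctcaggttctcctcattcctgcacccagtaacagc
Asmt: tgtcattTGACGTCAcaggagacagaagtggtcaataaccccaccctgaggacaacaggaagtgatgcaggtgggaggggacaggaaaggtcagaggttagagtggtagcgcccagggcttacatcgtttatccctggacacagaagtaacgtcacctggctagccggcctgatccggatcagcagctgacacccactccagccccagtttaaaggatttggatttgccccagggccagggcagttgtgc

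The window of Crx is chr1:85681853-85682102 on the minus strand, and its matches began 170 and 97 bases before the start. That of Rbp3 is chr16:9273537-9273786 on the plus strand, with the match 103 bases before the start. Gngt1 (chr4:32960695-32960944, plus strand) held it 220 bases before the start, and Aanat (chr10:102326073-102326322, plus strand) 106 bases before. In Asmt (chr12:21423337-21423586, minus strand) the TGACGTCA match began 243 bases before the start. Neither set of letters was found in the windows of Tph1, Pde6b and Sag. A match of letters describes the sequence and is no evidence of binding.

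All 10 genes were highest in Sham, and 8 of 10 were lowest in LPS/HI. In 7 of 10 the group means ran Sham, NaCl/HI, LPS and LPS/HI from high to low. Sag had LPS above NaCl/HI, Aanat was lowest in NaCl/HI, and Otx2 was lowest in LPS. The distances between Sham and LPS/HI ranged from 2.01 in Tph1 to 0.09 in Otx2 on the log2 scale, so the genes differed in size as well as, for 3 of them, in the order of the groups.

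**Figure D1:**
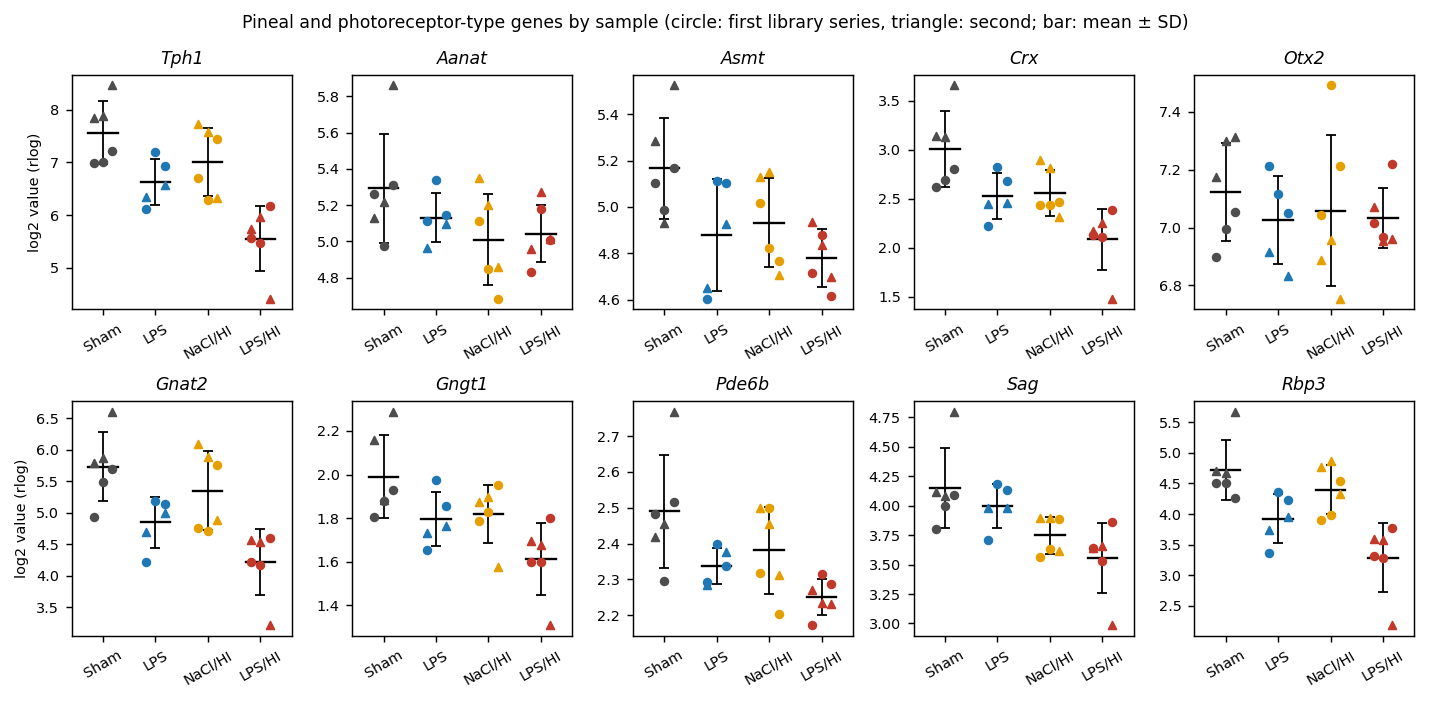
Log2 (rlog) value of each of the 10 genes in every sample, by group (Sham, NaCl/HI and LPS/HI n = 6, LPS n = 5), each panel with its own axis; circles are the first library series, triangles the second, and bars the group mean ± SD. Sham means are the highest in all 10 panels, and the lone low LPS/HI triangle in Tph1 (4.41), Gnat2 (3.22) and Rbp3 (2.19) is replicate 6.

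Among the melatonin enzymes, Tph1, the tryptophan hydroxylase of the pineal gland and of tissues outside the brain, varied most. Its log2 values in Sham ran from 6.99 over a median of 7.53 to 8.47. In LPS the 5 samples had 6.12, 7.2, 6.93, 6.35 and 6.57. NaCl/HI samples lay between 6.29 and 7.72 with a median of 7.08, and LPS/HI samples between 4.41 and 6.17 with a median of 5.65. All 6 LPS/HI samples were below every Sham and every NaCl/HI sample, while LPS and LPS/HI overlapped. The mean ± SD was 7.57 ± 0.59 over the 6 Sham, 7.01 ± 0.65 over the 6 NaCl/HI, 6.63 ± 0.44 over the 5 LPS and 5.55 ± 0.62 over the 6 LPS/HI samples. Neighbours among the first 3 differed by no more than 1 of these SDs, and LPS/HI lay further from LPS than that.

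The mean difference of Tph1 between LPS/HI and Sham was -2.01 ± 0.32 (SE), the lowest of all 20301 genes in that comparison (rank 1). It was also rank 1 from the bottom against LPS (-1.08 ± 0.34) and against NaCl/HI (-1.46 ± 0.32). LPS against Sham gave -0.93 ± 0.34 (rank 6), and NaCl/HI against Sham gave -0.56 ± 0.32 (rank 18). The difference between LPS/HI and Sham was -1.34 within the first library series and -2.69 within the second, with no overlap in either.

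Aanat and Asmt, which encode the acetylating and the methylating enzyme after serotonin, moved far less than Tph1. Aanat had 4.98 to 5.86 in Sham with a median of 5.24. Its LPS values were 5.11, 5.34, 5.14, 4.96 and 5.09, its NaCl/HI values ran from 4.68 over 4.99 to 5.35, and its LPS/HI values from 4.83 over 5.01 to 5.27. The 4 groups overlapped, and LPS/HI differed from Sham by -0.25 ± 0.13 (SE). Asmt had 4.93, 5.14 and 5.53 as lowest, median and highest value in Sham, and 4.61, 4.78 and 4.94 in LPS/HI. In LPS it had 4.60, 5.11, 5.10, 4.65 and 4.93, and in NaCl/HI it ran from 4.71 over 4.92 to 5.15. Its difference between LPS/HI and Sham was -0.39 ± 0.12 (SE), with only the edges of the groups overlapping.

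Of the transcription factors, Crx, the homeobox factor that drives photoreceptor and pinealocyte genes, was lower in LPS/HI and Otx2, which acts ahead of it, was level. Crx ran from 2.62 over a median of 2.97 to 3.66 in Sham and from 1.48 over 2.15 to 2.38 in LPS/HI. Its LPS values were 2.22, 2.83, 2.68, 2.45 and 2.46, and NaCl/HI had 2.32 to 2.89 with a median of 2.45. Every LPS/HI sample was below every Sham sample, with a mean difference of -0.92 ± 0.17 (SE). Against NaCl/HI the difference was -0.47 ± 0.17 and against LPS -0.44 ± 0.17, with overlap in both. Within the library series Crx differed between LPS/HI and Sham by -0.50 and -1.34.

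Otx2 had a mean ± SD of 7.12 ± 0.17 over the Sham, 7.06 ± 0.26 over the NaCl/HI, 7.03 ± 0.15 over the LPS and 7.03 ± 0.10 over the LPS/HI samples. Sham ran from 6.90 to 7.31, LPS from 6.83 to 7.21, NaCl/HI from 6.75 to 7.49 and LPS/HI from 6.95 to 7.22, with overlap throughout. All 6 differences between groups lay between -0.10 and 0.01, and that between LPS/HI and Sham was -0.09 ± 0.11 (SE). It turned sign between the library series, from 0.09 in the first to -0.27 in the second.

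Among the light-response genes, Gnat2, the alpha subunit of cone transducin, followed Tph1 closely. Sham samples had 4.93 to 6.61 with a median of 5.75, and LPS samples 4.21, 5.20, 5.13, 4.70 and 4.99. NaCl/HI samples ran from 4.71 over 5.33 to 6.09, and LPS/HI samples from 3.22 over 4.38 to 4.60. LPS/HI lay below all Sham and all NaCl/HI samples, by a mean of -1.51 ± 0.30 (SE, rank 2 of all genes) and of -1.13 ± 0.30 (SE, rank 3). LPS differed from Sham by -0.89 ± 0.31 (SE). The difference between LPS/HI and Sham was -1.04 in the first library series and -1.98 in the second.

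Rbp3, which encodes the interphotoreceptor retinoid-binding protein, had 4.27 to 5.67 in Sham with a median of 4.59. In LPS its values were 3.36, 4.35, 4.23, 3.73 and 3.95, in NaCl/HI they ran from 3.90 over 4.43 to 4.87, and in LPS/HI from 2.19 over 3.45 to 3.77. The 6 LPS/HI samples again lay below all Sham and all NaCl/HI samples. Mean differences were -1.43 ± 0.26 (SE, rank 5) against Sham and -1.11 ± 0.26 (SE, rank 4) against NaCl/HI. LPS differed from Sham by -0.80 ± 0.27 (SE). Within the library series LPS/HI differed from Sham by -0.97 and -1.90.

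The other 3 genes of the light response spanned a narrower range. Sag, the visual arrestin that ends the light response, had 3.81 to 4.80 in Sham with a median of 4.08 and 2.99 to 3.87 in LPS/HI with a median of 3.64, and these overlapped at their edges. Its LPS values were 3.71, 4.18, 4.13, 3.98 and 3.98, and all but the first of these lay above the NaCl/HI values of 3.56 to 3.89. LPS/HI differed from Sham by -0.59 ± 0.15 (SE), and NaCl/HI did so by -0.40 ± 0.15. Gngt1, the gamma subunit of rod transducin, had 1.80 to 2.29 in Sham and 1.31 to 1.80 in LPS/HI, just without overlap and with a difference of -0.38 ± 0.09 (SE). Pde6b, the beta subunit of the rod phosphodiesterase, had 2.30 to 2.77 in Sham and 2.17 to 2.31 in LPS/HI, a difference of -0.24 ± 0.06 (SE). Gngt1 had 1.65 to 1.97 in LPS and 1.57 to 1.95 in NaCl/HI, and Pde6b had 2.28 to 2.40 and 2.20 to 2.50, all overlapping Sham.

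**Figure D2:**
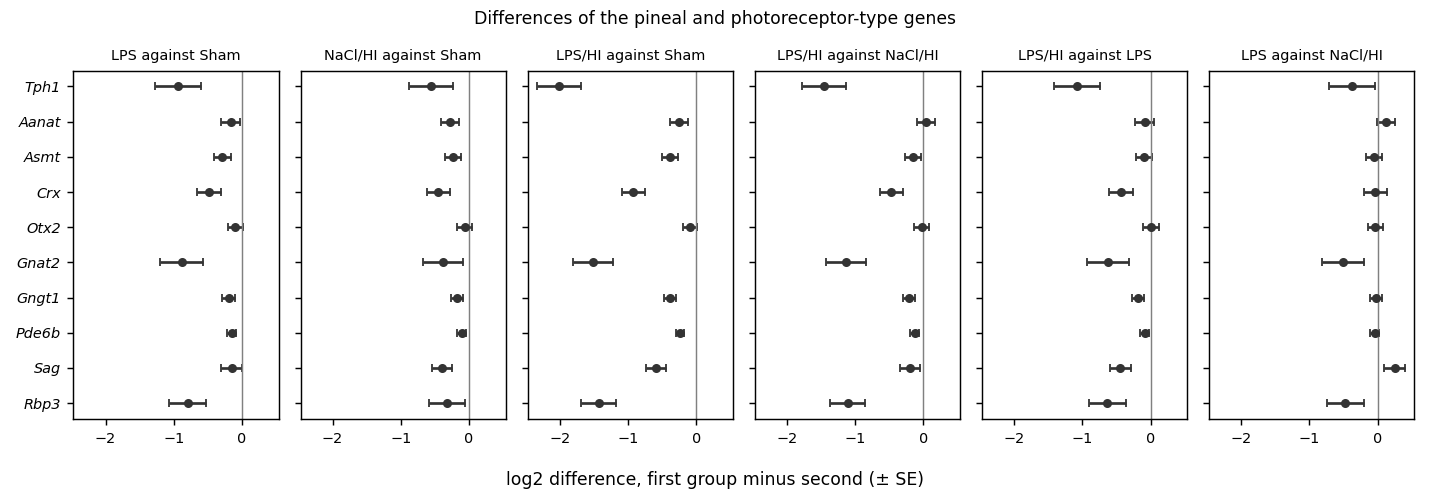
Difference of group means of each gene (first group minus second, log2 scale) with its standard error from the limma fit of all 23 samples, for the 6 pairs of groups. The differences of Tph1, Gnat2 and Rbp3 between LPS/HI and Sham are -2.01, -1.51 and -1.43, and those of Otx2 stay at or near 0 in all 6 panels.

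Genes were called with limma at a fold change above 2 and a Benjamini-Hochberg adjusted p under 0.05 over all genes. In LPS/HI against Sham 6 genes of the table were called lower (0.0296%), and these were Tph1, Gnat2 and Rbp3 of the list and Pde6g, Impg2 and Aipl1 of the wider pathway. All 3 pathway calls were lost without Sham replicate 6 alone or without LPS/HI replicate 6 alone (0.0148% of all genes lower in each), while the 3 of the list were called in both. Because the list was drawn up from this contrast, the count is given beside its background and nothing is read from it. By adjusted p alone 8 of the 10 were lower, all but Aanat and Otx2, where 3.48% of all genes were. With 1 replicate left out 6 to 8 of the 10 passed. The share of all genes lower then ran from 1.3% without LPS/HI replicate 5 to 5.09% without LPS/HI replicate 1. In 5 of the 10 (Tph1, Crx, Gnat2, Gngt1 and Rbp3) every LPS/HI sample was below every Sham sample, as in 2.52% of all genes. The median difference of the 10 was -0.49, and that of all genes was -0.0024.

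In the other comparisons none of the 10 was called by limma with both thresholds and the residual degrees of freedom lowered to 16. With these left at 19, Tph1 was called lower in LPS/HI against LPS (0.00493% of all genes) and 3 of the 10 in LPS/HI against NaCl/HI (0.0148%). Background shares of genes called lower were 0.00493% in LPS against Sham and 0.0443% in LPS against NaCl/HI, and 0% in the remaining ones. By adjusted p alone Rbp3 was lower in LPS against Sham (7.56% of all genes), and 0 of the 10 passed in NaCl/HI against Sham (0% lower), LPS/HI against LPS (0.719% lower), LPS/HI against NaCl/HI (0.0493% lower) or LPS against NaCl/HI (3.66% lower). At an unadjusted limma p under 0.05, 7 of the 10 were lower in LPS against Sham, where 32% of all genes passed in either direction. Likewise 3 of the 10 were lower in NaCl/HI against Sham (14.8% of all genes), 4 in LPS/HI against LPS (15.5%), 5 in LPS/HI against NaCl/HI (10.6%) and 0 in LPS against NaCl/HI (23%). The call of Rbp3 in LPS against Sham was lost with the library series, a split not named in the labels, as a block (0 of the 10, 6.7% of all genes lower). The count was also 0 without any 1 of Sham replicates 4, 5 and 6, LPS replicates 1, 4 and 5, NaCl/HI replicates 3 and 6 or LPS/HI replicates 1, 2, 4 and 5, with 4.82% to 8.06% of all genes lower. It was 2 without Sham replicate 2 (5.71% of all genes lower) or NaCl/HI replicate 2 (7.49%), 3 without Sham replicate 1 (6.28%) or NaCl/HI replicate 4 (8.56%), and 4 without LPS/HI replicate 6 (6.99%). In LPS/HI against NaCl/HI 3 of the 10 (Tph1, Gnat2 and Rbp3) had samples that did not overlap, as did 0.433% of all genes. Comparisons with Sham share its 6 samples, and their values are set side by side only. The interaction is the difference of LPS/HI from NaCl/HI minus that of LPS from Sham. In its second part LPS and the injection cannot be told apart, since none was listed for Sham. The interaction was -0.53 ± 0.46 (SE) for Tph1, -0.31 ± 0.38 for Rbp3, -0.25 ± 0.43 for Gnat2 and 0.01 ± 0.24 for Crx. With 1 replicate left out it ran from -0.71 to -0.30, -0.50 to -0.09, -0.42 to -0.05 and -0.12 to 0.13 in these genes. It passed for 0 of the 10 by adjusted p (0.719% of all genes lower and 0.365% higher) and for 0 of the 10 by unadjusted p (15.1% of all genes).

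The size of the differences moved with the library series. In LPS against Sham 7 of the 10 were lower within the first series, none of them without overlap (17.3% of all genes), with a median of -0.11. Within the second series all 10 were lower without overlap (21.8% of all genes), with a median of -0.42 from 3 Sham and 2 LPS samples. LPS/HI against Sham had 9 of 10 lower in the first series (6 without overlap, as 10.7% of all genes, median -0.32) and 10 of 10 in the second (8 without overlap, as 15% of all genes, median -0.73). Of the genes not yet given, LPS/HI differed from Sham in the first and second series by -0.18 and -0.32 for Aanat, -0.35 and -0.42 for Asmt, -0.28 and -0.90 for Sag, -0.21 and -0.55 for Gngt1, and -0.17 and -0.30 for Pde6b. LPS/HI against NaCl/HI had 9 lower in each, with medians of -0.19 and -0.30. The Sham mean of Tph1 was itself 7.07 in the first series and 8.06 in the second, and the part of the series in these results was not tested beyond these values.

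The list of other pathway genes held 75 symbols in 4 groups, of which 67 were in the table. In LPS/HI against Sham 19 of the 67 were lower and 1 was higher by limma's adjusted p (3.48% and 5.3% of all genes), with a median difference of -0.11. With 1 replicate left out 17 to 25 of the 67 passed in either direction, where 1.3% to 5.09% of all genes were lower. The 67 genes were measured in the same libraries as the 10 genes and are no separate line of evidence.

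By role, 16 of the 19 belonged to the machinery of photoreceptors. Of 23 phototransduction genes 6 were lower, with Pde6g, the inhibitory subunit of the phosphodiesterase, at -1.08 ± 0.22 (SE), Gnb3, a transducin beta subunit, at -0.89 ± 0.19 and Pdc, phosducin, at -0.64 ± 0.14. Pde6g ran from 4.91 over 5.13 to 6.23 in Sham and from 3.53 over 4.27 to 4.65 in LPS/HI, without overlap. Of 22 genes of the outer segment, visual cycle and synapse 10 were lower, led by Impg2, a proteoglycan of the interphotoreceptor matrix (-1.04 ± 0.19), Aipl1, a chaperone of the phosphodiesterase (-1.02 ± 0.19), and Tulp1, a tubby-like protein (-0.88 ± 0.16). The 1 gene that was higher, Abca4, the retinoid flippase of the outer segment, had 0.26 ± 0.08. Gnat1, rod transducin alpha, had a difference of 0.06 ± 0.04 and did not pass.

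Of 11 pathway transcription factors 2 were lower, Lhx4 (-0.71 ± 0.14) and Bsx (-0.27 ± 0.08), both homeobox factors, while Neurod1 had 0.20 ± 0.17. Of 11 genes of melatonin synthesis and its control 1 was lower, Chrnb4, a nicotinic receptor subunit (-0.44 ± 0.08). Ddc, the decarboxylase that yields serotonin, had -0.33 ± 0.12 and Dio2, a deiodinase under adrenergic control in the pineal gland, had 0.15 ± 0.11, and neither passed.

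In LPS against Sham 7 of the 67 were lower and 0 higher by adjusted p (7.56% and 10.2% of all genes): Cngb1, Cngb3, Prom1, Lrat, Tulp1, Impg1 and Cplx3. The count fell to 3 without Sham replicate 6 (5.88% of all genes lower) and to 3 without LPS replicate 4 (4.82%). Markers of other lists were lower in the same comparison by adjusted p: 5 of 10 microglial and 4 of 8 neuronal ones (Snap25, Syt1, Stmn2 and Slc17a7). In 3 of each every LPS sample was below every Sham sample, as in 5.83% of all genes. The summed microglial level, as the mean of centred values, ran from -0.02 to 0.21 in Sham and from -0.20 to -0.02 in LPS, and the part of these markers in the LPS values was not tested. Of the remaining lists 2 of 7 neutrophil, 2 of 5 endothelial and 1 of 4 habenular markers were lower, and 1 of 8 cerebellar, 1 of 6 astrocyte and 1 of 5 endothelial markers were higher. None of the 67 passed in NaCl/HI against Sham by limma, where 0% of all genes were lower and 0.00985% higher by limma, and 18 of the 67 had an unadjusted p under 0.05 (14.8% of all genes), 16 of them lower. Without NaCl/HI replicate 4, 5 of the 67 and 0 of the 10 were lower by adjusted p, as were 0.842% of all genes. Prom1, a membrane protein of outer segment discs and of other cells, had another order of the groups. It had a mean ± SD of 10.25 ± 0.06 over the Sham, 10.04 ± 0.10 over the LPS, 10.06 ± 0.07 over the NaCl/HI and 10.23 ± 0.03 over the LPS/HI samples, and its interaction was 0.37 ± 0.06 (SE, limma adjusted p = 0.0124, with a range of 0.00859 to 0.0769 over blocks and left-out replicates, the highest with the replicate block, where the call was lost).

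**Figure D3:**
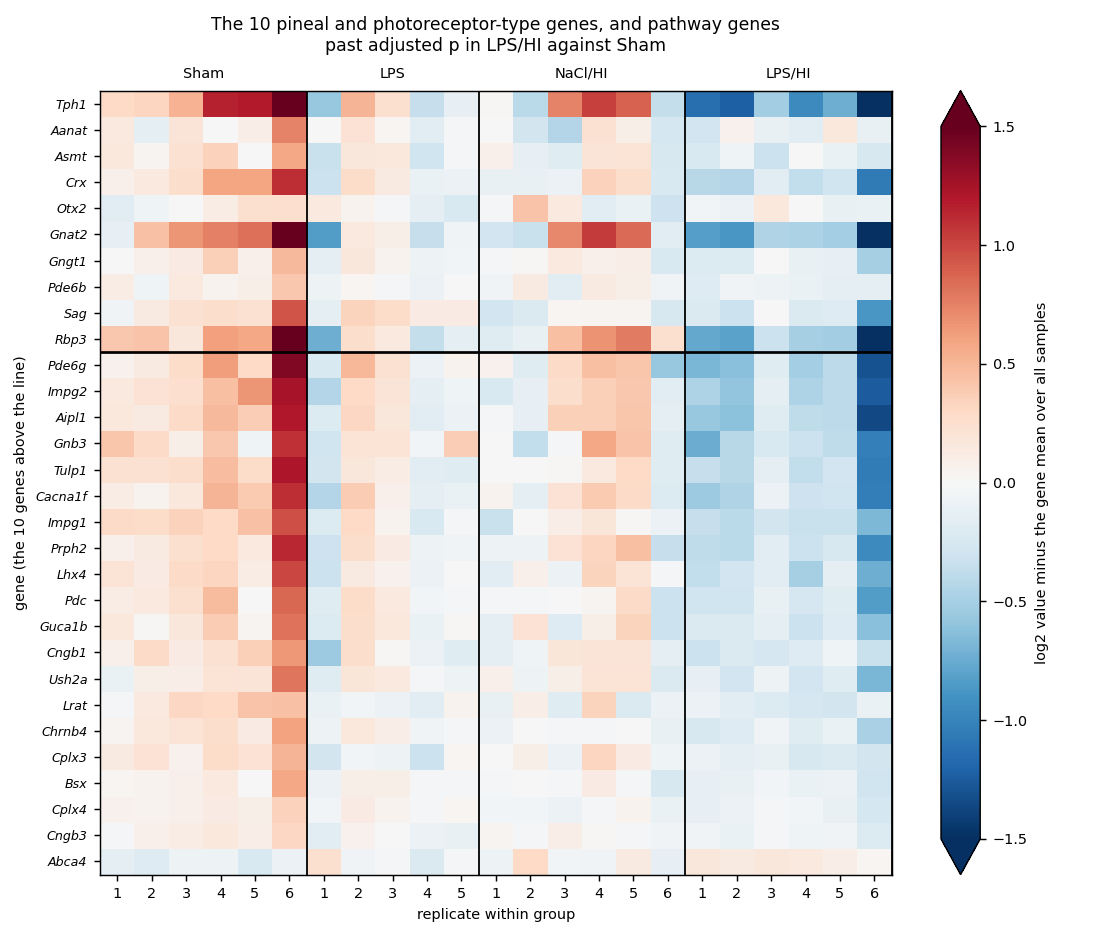
Log2 value minus the gene's mean over all 23 samples (colour, limits at -1.5 and 1.5), for the 10 genes above the line and the 20 pathway genes past limma's adjusted p in LPS/HI against Sham below it, with replicates of each group side by side. Sham replicate 6 and LPS/HI replicate 6 form the darkest red and blue columns, NaCl/HI replicates 4 and 5 are red for most of the upper genes, and Abca4 runs the other way.

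The samples fell into a similar order for most of these genes. As the mean of the 10 centred values, Sham replicate 6 was highest at 0.94 and LPS/HI replicate 6 lowest at -0.90, and the 6 LPS/HI samples took ranks 16 to 23 of 23, with 1 NaCl/HI and 1 LPS sample among them. NaCl/HI replicates 4 and 5, at 0.36 and 0.32, ranked 4 and 5, above 3 of the Sham samples. Without Sham replicate 6 and LPS/HI replicate 6, 4 of the 10 and 14 of the 67 were lower by adjusted p in LPS/HI against Sham (1.44% of all genes), against 8 and 19 with them (3.48%), and with both thresholds 3 of the 10 and 0 of the 67 were called (0.0148% of all genes lower).

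Across the 23 samples, which share preparation, library series and group, the 36 pairs of genes other than Otx2 had Pearson r from 0.48 to 0.97 with a median of 0.77. After subtraction of group means the median was 0.64. The 9 pairs with Otx2 had r from 0.08 to 0.46 with a median of 0.27. These are descriptions over samples that share a history, without a test.

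**Figure D4:**
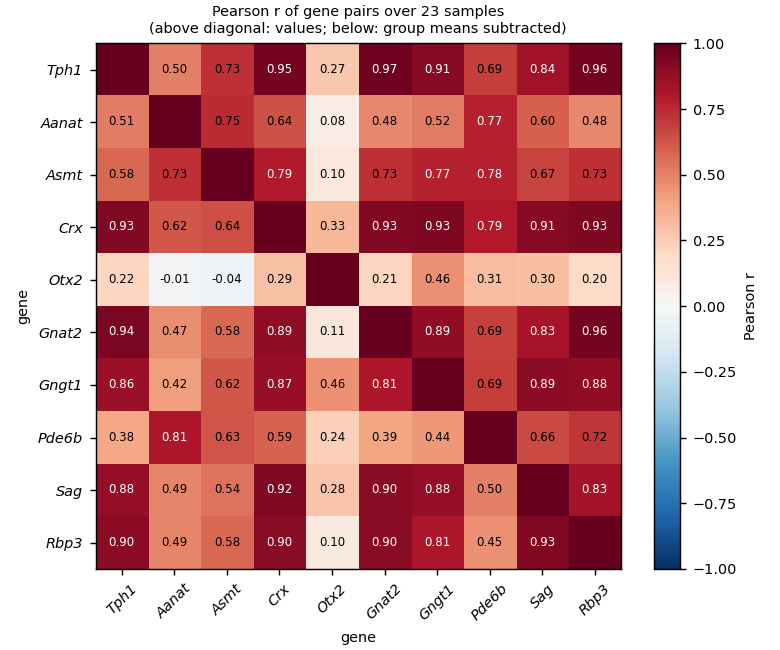
Pearson r between the 10 genes over 23 samples, from the values above the diagonal and after subtraction of group means below it; red is positive. Tph1, Crx, Gnat2, Gngt1, Sag and Rbp3 form a dark block, and the row and column of Otx2 stay pale.

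The genes most like each member of the list were sought over the table, with genes of equal values in all samples counted once (20138 left). Tph1 was most like Aipl1 (r = 0.98), Impg2 (0.97) and Gnat2 (0.97). Crx was most like Impg2 (0.98), the calcium channel gene Cacna1f (0.97) and Tulp1 (0.97). Gnat2 was most like Tph1 (0.97), Rbp3 (0.96) and Impg2 (0.96), and Rbp3 most like Aipl1 (0.97), Impg2 (0.97) and Gnat2 (0.96). Gngt1 was most like Pdc (0.97), Pde6g (0.96) and Cacna1f (0.95), and Sag most like Chrnb4 (0.94), Cplx4 (0.93) and Pdc (0.92).

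For the remaining genes likeness was looser. Pde6b was most like Lhx4 (0.87), Guca1b (0.85) and Vom1r31 (0.84), Asmt most like Isl2 (0.85), Rubcn (0.83) and Guca1b (0.83), and Aanat most like Fabp12 (0.88), Mir26a (0.79) and Cacna2d4 (0.78). Of the 20 genes most like Crx 4 were of the list and 12 of the pathway, whereas Aanat had 2 and 0. Otx2 was most like Myh2 (0.89), Mfrp (0.88) and Frem1 (0.87), and its 20 held 0 of the list, 0 of the pathway and 2 of the 9 choroid plexus markers.

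Markers of other cells were looked at beside these values. The mean of the 10 centred values had r = 0.97 with the phototransduction list and 0.98 with the outer segment list over the 23 samples. With the pathway transcription factors r was 0.77, and with the melatonin list 0.73. After subtraction of group means these were 0.93, 0.97, 0.71 and 0.68. With the choroid plexus list r was -0.09 (-0.08 after subtraction), with mast cells 0.06 (0.12), with the pituitary -0.18 (-0.31), with the habenula, which borders the pineal stalk, 0.43 (0.12), with microglia 0.30 (0.02) and with neurons 0.65 (0.39). Of 8 neuronal markers 3 were lower in LPS/HI than in Sham by adjusted p (background 3.48%), with Snap25 at -0.64 ± 0.09 (SE), Slc17a7 at -0.72 ± 0.16 and Syt1 at -0.27 ± 0.08. The other 5 did not pass: Slc17a6 had -0.24 ± 0.13, Gad1 -0.10 ± 0.14, Gad2 -0.06 ± 0.12, Rbfox3 0.02 ± 0.09 and Stmn2 0.09 ± 0.07. The summed neuronal level, as the mean of centred values, ran from 0.01 to 0.29 in Sham, -0.23 to 0.03 in LPS, -0.21 to 0.19 in NaCl/HI and -0.22 to 0.04 in LPS/HI. The part of neuronal RNA in these results was not tested.

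The choroid plexus list (9 of 9 in the table, none past adjusted p in LPS/HI against Sham) ran from -0.16 to 0.19 in Sham, -0.22 to 0.34 in LPS, -0.29 to 0.49 in NaCl/HI and -0.05 to 0.18 in LPS/HI. Its marker Ttr, transthyretin, had 14.43 ± 0.19 (SD, n = 6) in Sham and 14.55 ± 0.11 (SD, n = 6) in LPS/HI. Otx2 had r = 0.79 with this list, or 0.83 after subtraction of group means, while Tph1 had -0.08. The mast cell list (9 of 10 in the table, 0 past adjusted p in that comparison) ran from -0.24 to 0.38 in Sham and -0.30 to 0.30 in LPS/HI, and Tph1 had r = 0.01 with it. In the same comparison 1 of 10 microglial and 1 of 4 habenular markers were lower by adjusted p, and 0 of 5 ependymal, 0 of 8 cerebellar and hindbrain, 0 of 5 pituitary and 0 of 7 oligodendrocyte markers passed. Higher were 1 of 6 astrocyte, 1 of 5 endothelial, 3 of 7 meningeal fibroblast and 3 of 7 neutrophil markers, where 5.3% of all genes were higher and 3.48% lower. Over the 23 samples the mean of the 10 genes had r = -0.32 with the meningeal fibroblast list (0.11 after subtraction of group means), -0.29 with the neutrophil (0.09), -0.24 with the ependymal (-0.06), -0.22 with the astrocyte (0.28), -0.20 with the endothelial (0.07), -0.16 with the oligodendrocyte (-0.38) and -0.06 with the cerebellar list (0.51). The sign thus turned in 5 of these 7 lists. Without Sham replicate 6 and LPS/HI replicate 6, and before subtraction, r was -0.32 with the meningeal fibroblast, -0.47 with the neutrophil and -0.13 with the ependymal list. It was -0.15 with the astrocyte, -0.22 with the endothelial, -0.19 with the oligodendrocyte and -0.12 with the cerebellar list.

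**Figure D5:**
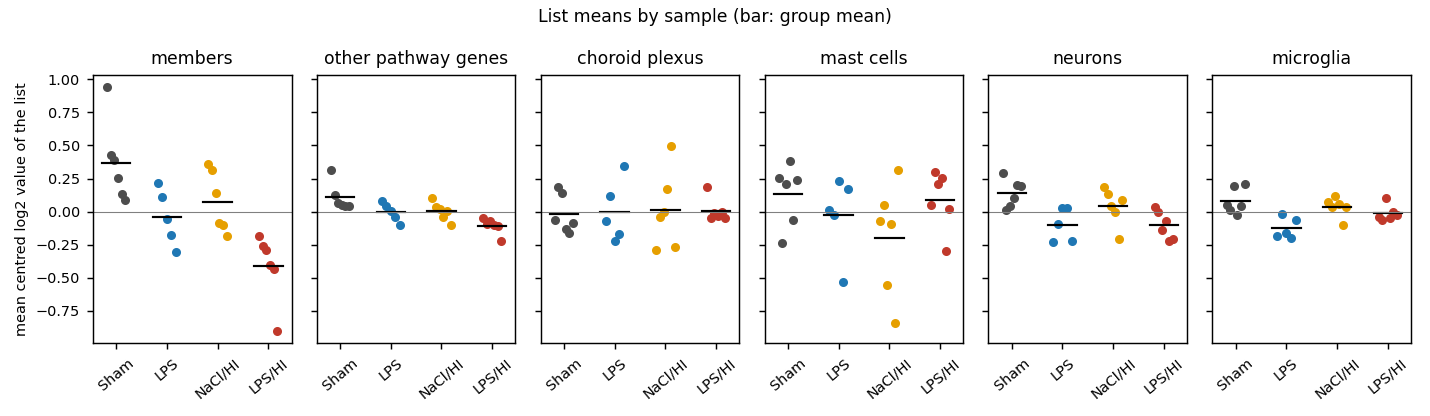
Mean centred log2 value per sample (1 point each, by group, with the group mean as a bar) of the 10 genes (first panel, members), the 67 other pathway genes and 4 marker lists. The 10 genes fall from a Sham mean of 0.37 to an LPS/HI mean of -0.41, while choroid plexus means lie between -0.02 and 0.01 in all 4 groups.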

How the data were processed

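RNA-sequencing values of 23 microglia samples in 4 groups, assigned by their titles, were taken from the table the authors deposited. The deposited values are log2 values: per the methods, the authors quantified reads with kallisto 0.48.0 on mRatBN7.2, imported them with tximport, left out genes under 10 counts over all samples, summed protein-coding genes of 1 symbol, applied the rlog transformation of DESeq2 and removed 3 surrogate variables, where the sources used here do not give the model of the removal. The removal lowers the spread within groups, so that p-values can be too small. Depth is unknown, which leaves the counting error of weak genes unknown. Samples of a group are separate pups or pools of pups.

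Group differences came from limma (3.58.1, R 4.3.3), fitted once to the 23 samples with its trend option, with residual degrees of freedom lowered from 19 to 16 and Benjamini-Hochberg adjustment over 20301 genes. No gene was filtered. The script was tested on simulated data with large planted differences. Limits on false calls were set only for hidden variables centred within groups, so the p-values are untested where such a variable was aligned with the groups. Correlations, motifs and counts used Python 3.11.15 with pandas 2.3.3. The 10 genes, the 4 pathway and 13 marker lists (given by hand), the motifs and the tests were chosen with earlier results of these data known. Genes were named if they were on the list, were called pathway genes, were among the 3 pathway genes of a group with the largest range of group means, were among the 3 most like a listed gene, or led a marker list; Gnat1 and Ttr, the remaining neuron markers, the microglial markers given, and the pathway genes past adjusted p alone, were added after their values were seen. The labels do not say whether replicate numbers pair samples, and the main fit treated samples as unpaired. Alternatives covered residual degrees of freedom, array weights, quantile normalization, low genes, thresholds, blocks and left-out replicates.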

Additional observations from a re-analysis of the deposited data

Results flagged for a closer look

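In groups of 5 or 6 samples, the distance of the highest or lowest sample from its nearest neighbour was compared with Dixon's limit for each of 40 combinations of gene and group. Chance flags about 5% of such groups, and 5 of 40 were flagged. LPS/HI replicate 6 was far below the other LPS/HI samples in Crx (1.48), Gnat2 (3.22) and Rbp3 (2.19). Sham replicate 6 was far above the other Sham samples in Sag (4.80) and Rbp3 (5.67). The genes are correlated over samples, so these are values of 2 libraries rather than 5 separate events.

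Prom1 passed in the limma interaction, a call that was lost with the replicate block (limma adjusted p = 0.0769). The interaction was 0.37 on the log2 scale with a limma adjusted p of 0.0124, with LPS at -0.20 relative to Sham and LPS/HI at 0.17 relative to NaCl/HI. No injection was listed for Sham, so the interaction is not one of LPS alone with HI.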

How the results depend on the processing

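Differences of the 10 genes were compared under the replicate block, median centring, quantile normalization, each library series, 23 leave-one-out fits and the fit without both replicates 6 that stood apart. Of 2030 such differences 1958 kept their sign and 17 moved by more than 1 SD. Of 261 that passed adjusted p all 261 kept their sign and 8 moved. Leaving out a replicate of a group outside a comparison cannot change its difference, so many of these values were fixed in advance. Tph1, Gnat2 and Rbp3 were called in LPS/HI against Sham whichever replicate was left out (3 to 3, with 0.0148% to 0.0296% of all genes lower). In LPS against Sham 0 to 2 of the 10 were called when 1 replicate was left out, with 2 (Tph1 and Gnat2) without Sham replicate 1 (0.0148% of all genes lower) and 1 (Tph1) without Sham replicate 2 (0.00985%). Other pathway genes in LPS/HI against Sham ranged from 0 to 3, with 0 without Sham replicate 6 and 0 without LPS/HI replicate 6, and were 0 without both, an alternative chosen after seeing the data; the cause was not tested. With the residual degrees of freedom left at 19, and likewise with array weights, 1 of the 10 was called in LPS/HI against LPS and 3 in LPS/HI against NaCl/HI (0.00493% and 0.0148% of all genes lower, and 0.00493% and 0.0345% with weights). In LPS/HI against Sham array weights called 18 genes of the table lower (0.0887%). By adjusted p alone 1 of the 10 was lower in LPS against Sham (7.56% of all genes lower) and 8 in LPS/HI against Sham (3.48% lower). Of the other pathway genes 7 were lower in the former, and 19 were lower and 1 higher in the latter (5.3% of all genes higher). In LPS/HI against LPS 1 pathway gene was higher, as were 248 of the 20301 genes, and 0 to 2 passed when 1 replicate was left out. In the interaction 1 was higher (0.365% of all genes). With a fold change above 1.5, 1 of the 10 was called in LPS against Sham (0.197%), 5 of the 10 in LPS/HI against Sham (0.113%) and 10 other pathway genes there. With the 25% weakest genes left out 1 other pathway gene and 2 of the 10 were called there (0.0197% of the genes kept were lower), since this filter removed Impg2, Aipl1, Rbp3, Crx, Sag, Gngt1 and Pde6b. Of 33 pairs of same-numbered samples 9 had r over 0.1 between their deviations from the group means, with a median of -0.03 and a highest value of 0.47. Since the authors had removed 3 surrogate variables, low values of r cannot show that samples were unpaired. The replicate block left the calls with both thresholds at 3 of the 10 and 3 other pathway genes in LPS/HI against Sham (0.0296% of all genes lower) and at 0 elsewhere. By adjusted p alone it left 6 of the 10 and 17 of the 67 lower in LPS/HI against Sham (1.33% of all genes). In LPS against Sham it left 1 of the 10 and 4 of the 67 (4.09%). In the interaction it left 0, where Prom1 had 0.37 with a limma adjusted p of 0.0769. An exact Wilcoxon rank-sum test, two-sided, gave 8 of the 10 and 20 of the 67 lower (4.16%) and 1 of the 67 higher in LPS/HI against Sham. In LPS against Sham it gave 1 of the 10, and 9 of the 67 with 7 of them lower (8.7% of all genes lower). The Wilcoxon test called no gene of the table in NaCl/HI against Sham or in comparisons without Sham, so it says nothing of them. Unknown depth limits what can be said of the weakest genes, such as Gngt1.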
